A study of Mus musculus with 8 samples.

Results

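The genes described here encode the catalytic Ring subunits of Polycomb repressive complex 1 (PRC1) and the subunits that define its variant forms. They are Ring1, Rnf2, Pcgf1, Pcgf3, Pcgf5, Pcgf6, Kdm2b, Rybp and Yaf2, chosen by symbol from the larger of the deposited gene tables. All 9 had a row among its 31574 rows, and all 9 lay above the detection floor in all 8 libraries. RNA was sequenced from leukaemic c-kit+ bone marrow cells of C57BL/6 mice with acute myeloid leukaemia. The 8 libraries form 4 groups of 2. The Ezh1-/- tamoxifen group was Ezh1-/- Ezh2-/-, and the Ezh1-/- oil group was Ezh1-/- with Ezh2 intact. The Ezh1+/+ tamoxifen group was Ezh1+/+ Ezh2-/-, and the Ezh1+/+ oil group was Ezh1+/+ with Ezh2 intact. Intact Ezh2 was written as Ezh2+/+ in the sample labels and as a floxed allele in the series' design text. Tamoxifen was given in corn oil by intraperitoneal injection at 10 mg/kg/day for 5 doses, and the oil groups received corn oil. Cells were collected 7 days after treatment, and each library started from 1 µg of RNA. The titles of all 8 samples begin with Moz, which the labels do not expand, and no Cre driver is named. No label says that replicates were separate animals or leukaemias, so each p measures the spread between these libraries, which may be technical. Effects of tamoxifen and of Ezh2 deletion cannot be told apart, and neither can effects of Ezh1 genotype and of leukaemia where each genotype is a separate leukaemia.

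PRC1 attaches a single ubiquitin to histone H2A through the RING E3 ligases Ring1 and Rnf2 (also called Ring1A and Ring1B), and each complex holds one of these ligases and one Pcgf protein. Variant PRC1 carries Rybp or Yaf2 in place of a Cbx protein and can bind chromatin without the H3K27 methylation mark that Ezh1 and Ezh2 deposit, whereas canonical PRC1 binds that mark through its Cbx subunits. Pcgf1 belongs to PRC1.1 with Kdm2b, Pcgf3 and Pcgf5 to the paired complexes PRC1.3 and PRC1.5, and Pcgf6 to PRC1.6.

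Loss of Ezh1 went with higher RNA of Pcgf5 and Yaf2 and lower RNA of Pcgf3 and Kdm2b in the oil libraries, that is 4 of the 9 genes, where 24.9% of all genes tested changed. Pcgf5 alone, 1 of the 9, also passed the test among the tamoxifen libraries, where 12.2% of all genes did. By the same limma test Ezh2 deletion called none of the 9, where 3.4% of all genes were called without Ezh1 and 0.903% with it. The upstream sequences of the 3 of these 4 genes that had an entry in the RefSeq promoter table (GRCm38.p6) are shown because Kdm2b itself binds DNA through unmethylated CG dinucleotides, which stand in capitals below. Each is the 250 bases before an annotated start, 5′ to 3′ on the gene's strand. The Pcgf5 window is chr19:36348079-36348328 (plus strand), the Pcgf3 window chr5:108461009-108461258 (plus strand), the outer Kdm2b window chr5:122989100-122989349 (minus strand), and the internal Kdm2b window chr5:122900368-122900617 (minus strand).
Pcgf5: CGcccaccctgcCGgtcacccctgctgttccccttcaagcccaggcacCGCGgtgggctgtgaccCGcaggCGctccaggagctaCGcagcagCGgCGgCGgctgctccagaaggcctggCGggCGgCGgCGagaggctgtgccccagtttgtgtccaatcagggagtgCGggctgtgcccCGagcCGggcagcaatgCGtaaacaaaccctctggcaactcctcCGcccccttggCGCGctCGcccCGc
Pcgf3: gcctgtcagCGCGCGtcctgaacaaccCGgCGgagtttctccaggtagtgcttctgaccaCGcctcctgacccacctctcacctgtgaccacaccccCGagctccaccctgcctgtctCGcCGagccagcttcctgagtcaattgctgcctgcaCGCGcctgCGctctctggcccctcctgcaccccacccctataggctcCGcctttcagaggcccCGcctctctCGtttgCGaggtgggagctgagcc
Kdm2b outer: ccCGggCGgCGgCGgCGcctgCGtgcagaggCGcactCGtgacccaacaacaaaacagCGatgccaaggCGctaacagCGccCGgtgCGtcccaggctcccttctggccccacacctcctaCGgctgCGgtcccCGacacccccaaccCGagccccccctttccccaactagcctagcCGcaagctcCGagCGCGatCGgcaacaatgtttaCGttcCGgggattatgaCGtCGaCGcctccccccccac
Kdm2b internal: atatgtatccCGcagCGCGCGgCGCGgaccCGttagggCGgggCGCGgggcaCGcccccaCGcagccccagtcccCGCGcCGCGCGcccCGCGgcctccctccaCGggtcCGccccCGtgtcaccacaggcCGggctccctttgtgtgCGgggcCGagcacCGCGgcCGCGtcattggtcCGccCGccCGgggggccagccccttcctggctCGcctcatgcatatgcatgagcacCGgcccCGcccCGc

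These windows held 23 CG in Pcgf5, 16 in Pcgf3, 27 in the outer Kdm2b window and 36 in the internal one, against a median of 6 CG over all 32851 promoters of 250 bases in the table. Of the 9 genes, 6 had entries, with 11 promoters in all. Among the other windows, the Ring1 promoter held 30 CG, the Rnf2 promoter 20 and the Pcgf6 promoter 14. Windows before other starts of Pcgf5 and Kdm2b held 4 to 38 CG, the lowest being a Pcgf5 window at chr19:36378817-36379066 with 4, which was also the single window of the 11 below the median. The E-box CACGTG, the letters bound by Max dimers, was in none of the 11 windows on either strand and in 6.02% of all promoters. The E2F6-type motif TTCCCGC was in a single window, before an internal Pcgf5 start at chr19:36409498-36409747 with 28 CG, and in 3.82% of all promoters. The expression values are per gene and do not say which start was used.

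Each value below is a log2 expression value, normalized by the authors and centred on the median of that gene across libraries. A value of 0 is therefore the middle of that gene's libraries, and levels cannot be compared between genes. Changes are differences of group means on the log2 scale, given ± the standard error from limma fitted over all 18051 genes tested, with 2 libraries a group. An adjusted p (Benjamini-Hochberg over all of these genes) under 0.05 is called a change, and 95% intervals are not adjusted. The deposited values keep no total count per library. Ezh1 RNA lay between -1.94 and -1.55 in the 4 Ezh1-/- libraries and between 1.55 and 1.71 in the 4 Ezh1+/+ libraries. Ezh2 RNA was -0.53 and -0.56 in Ezh1-/- tamoxifen libraries, against -0.12 and -0.03 in Ezh1-/- oil libraries, a difference of -0.47 ± 0.08 (limma adjusted p = 0.0554). In Ezh1+/+ cells Ezh2 was 0.09 and 0.03 after tamoxifen, against 0.25 and 0.23 in oil (-0.18 ± 0.08, limma adjusted p = 0.293). A value per gene does not resolve the deleted exons, so it does not show how complete the deletion was. In bulk RNA, fewer cells of a type and less RNA per cell cannot be told apart.

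**Figure D1:**
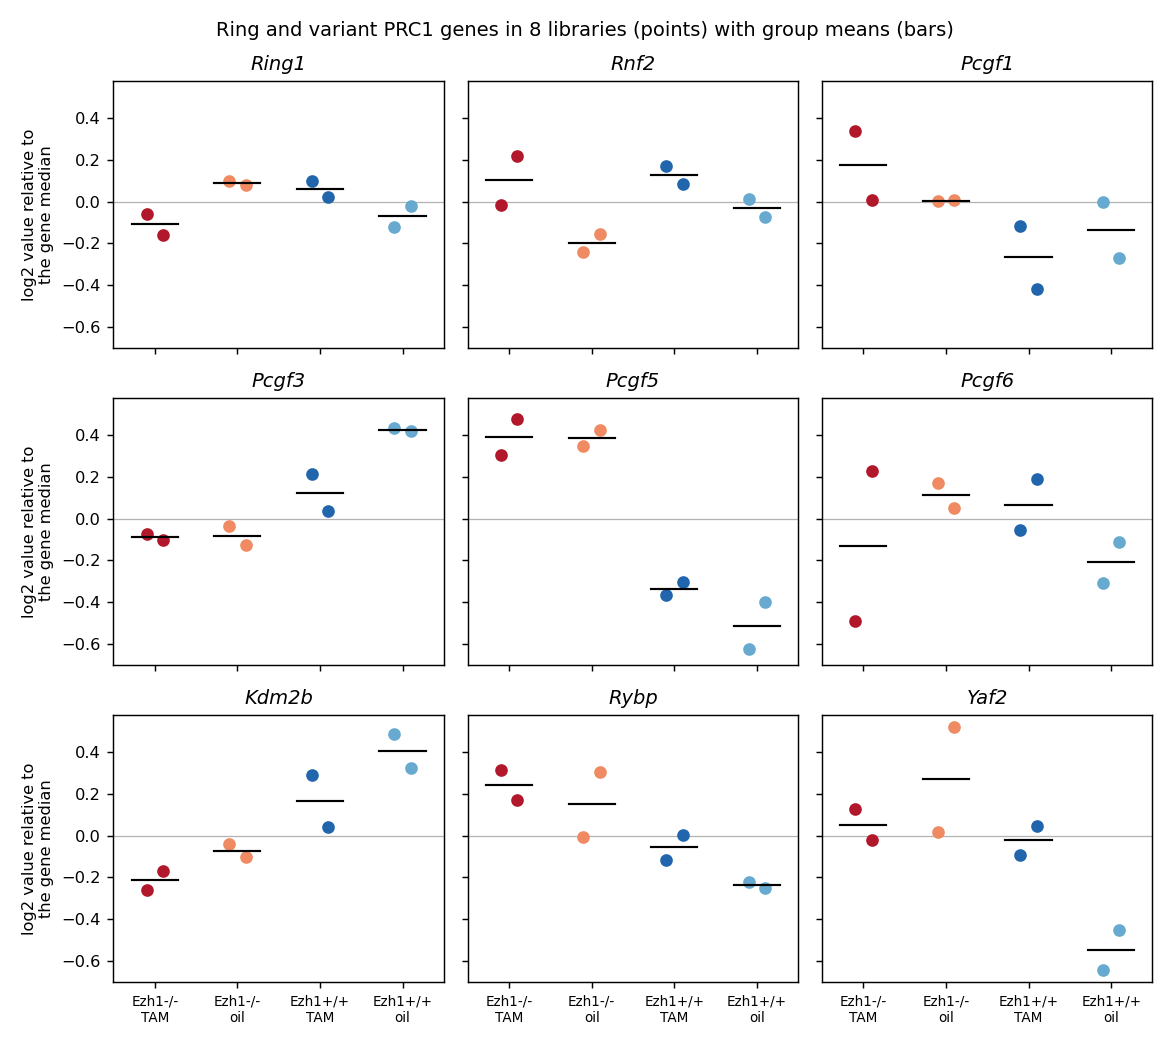
Log2 expression of each of the 9 genes relative to that gene's median over 8 libraries, one point a library and a bar at each group mean, for the Ezh1-/- tamoxifen, Ezh1-/- oil, Ezh1+/+ tamoxifen and Ezh1+/+ oil groups. Pcgf5 lies between 0.31 and 0.48 in the 4 Ezh1-/- libraries and between -0.62 and -0.31 in the 4 Ezh1+/+ libraries, while Ring1 stays within a range of 0.26 over all 8.

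The catalytic pair had the narrowest ranges over the 8 libraries, 0.26 for Ring1 and 0.46 for Rnf2. Ring1 (gene 19763, chr17:34020792-34024680), one of the alternative E3 ligases, had -0.06 and -0.16 in Ezh1-/- tamoxifen libraries, 0.10 and 0.08 in Ezh1-/- oil, 0.10 and 0.02 in Ezh1+/+ tamoxifen, and -0.12 and -0.02 in Ezh1+/+ oil. With tamoxifen its values were lower than in oil in Ezh1-/- cells (-0.20 ± 0.09, limma adjusted p = 0.347) and higher than in oil in Ezh1+/+ cells (0.13 ± 0.09, limma adjusted p = 0.472), and the groups did not overlap in either case. The difference between these Ezh2 effects was -0.33 ± 0.13, with an unadjusted p of 0.0477 and a limma adjusted p of 0.331, so it did not pass.

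Rnf2 (gene 19821, chr1:151469406-151500823) encodes the other E3 ligase. It had -0.0137 and 0.22 in Ezh1-/- tamoxifen libraries, against -0.24 and -0.16 in Ezh1-/- oil libraries, a difference of 0.30 ± 0.11 with a limma adjusted p of 0.259. In Ezh1+/+ cells it had 0.17 and 0.08 after tamoxifen, against 0.0137 and -0.07 in oil (0.16 ± 0.11, limma adjusted p = 0.491). The tamoxifen libraries lay above their oil libraries in both genotypes without overlap, but neither difference passed. The 95% interval of the change ran from 0.01 to 0.59 without Ezh1 and from -0.13 to 0.45 with Ezh1. Ezh1 loss shifted Rnf2 by -0.17 ± 0.11 in oil and by -0.03 ± 0.11 after tamoxifen (limma adjusted p = 0.326 and 0.904).

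Among the Pcgf genes, the related Pcgf3 and Pcgf5 went in opposite directions with Ezh1 loss. Pcgf5 (gene 76073, chr19:36348454-36456204) names PRC1.5. It had 0.35 and 0.43 in Ezh1-/- oil libraries, against -0.62 and -0.40 in Ezh1+/+ oil libraries. After tamoxifen it had 0.31 and 0.48 in Ezh1-/- libraries, against -0.37 and -0.31 in Ezh1+/+ libraries. All 4 Ezh1-/- libraries thus lay above all 4 Ezh1+/+ libraries. Pcgf5 rose 1.87-fold with Ezh1 loss in oil (0.90 ± 0.12, 95% interval 0.599 to 1.201, limma adjusted p = 0.00797) and 1.66-fold after tamoxifen (0.73 ± 0.12, 95% interval 0.43 to 1.03, limma adjusted p = 0.0263).

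Pcgf5 showed no called Ezh2 effect. Its tamoxifen change was 0.0030 ± 0.12 in Ezh1-/- cells (95% interval -0.30 to 0.30, limma adjusted p = 1.0) and 0.18 ± 0.12 in Ezh1+/+ cells (95% interval -0.13 to 0.48, limma adjusted p = 0.46). The call in oil stood under all 16 other ways of fitting the data, with limma adjusted p from 0.00554 to 0.047. The call after tamoxifen was lost with only the compared groups in the fit (limma adjusted p = 0.0929). It was also lost without Ezh1-/- tamoxifen replicate 1 (0.0806) or 2 (0.0997), Ezh1+/+ tamoxifen replicate 1 (0.0945) or 2 (0.0789), or either Ezh1-/- oil library (0.0516 each). The annotation places a separate gene, F530104D19Rik, inside the Pcgf5 span at chr19:36448992-36451157, and whether counting used strand is not stated. F530104D19Rik differed by 0.57 ± 0.41 with Ezh1 loss in oil and by 1.15 ± 0.41 after tamoxifen (limma adjusted p = 0.355 and 0.126).

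Pcgf3 (gene 69587, chr5:108461332-108503099), the close relative of Pcgf5 that names PRC1.3, had -0.0363 and -0.13 in Ezh1-/- oil libraries, against 0.43 and 0.42 in Ezh1+/+ oil libraries. Pcgf3 fell by 0.51 ± 0.10 with Ezh1 loss in oil, to 0.704 times the Ezh1+/+ value (limma adjusted p = 0.0205). After tamoxifen it had -0.07 and -0.10 in Ezh1-/- libraries, against 0.21 and 0.0363 in Ezh1+/+ libraries. These groups did not overlap either, but the difference of -0.21 ± 0.10 did not pass (limma adjusted p = 0.204). In Ezh1+/+ cells the tamoxifen libraries lay below the oil libraries by 0.30 on average (-0.30 ± 0.10, limma adjusted p = 0.182), whereas in Ezh1-/- cells the difference was -0.0063 ± 0.10 (limma adjusted p = 1.0). The difference between these Ezh2 effects was 0.29 ± 0.14 (limma adjusted p = 0.392). The oil call was lost without Ezh1-/- oil replicate 1 (limma adjusted p = 0.059) or 2 (0.0928), or Ezh1+/+ oil replicate 1 (0.0898) or 2 (0.0767).

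Pcgf1 (gene 69837, chr6:83078390-83080855), the subunit that assembles PRC1.1, had 0.34 and 0.0091 in Ezh1-/- tamoxifen libraries, against -0.12 and -0.42 in Ezh1+/+ tamoxifen libraries (0.44 ± 0.18, limma adjusted p = 0.159). In oil it had 0.0026 and 0.0087 in Ezh1-/- libraries, against -0.0026 and -0.27 in Ezh1+/+ libraries (0.14 ± 0.18, limma adjusted p = 0.596). Its 4 Ezh1-/- libraries lay above its 4 Ezh1+/+ libraries, narrowly so in oil. Its tamoxifen changes were 0.17 ± 0.18 in Ezh1-/- cells and -0.13 ± 0.18 in Ezh1+/+ cells (limma adjusted p = 0.682 and 0.714).

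Pcgf6 (gene 71041, chr19:47033619-47050845), the subunit that defines PRC1.6, was the least precisely measured of the 9. It had -0.49 and 0.23 in Ezh1-/- tamoxifen libraries, 0.17 and 0.05 in Ezh1-/- oil, -0.05 and 0.19 in Ezh1+/+ tamoxifen, and -0.31 and -0.11 in Ezh1+/+ oil. The Ezh1-/- tamoxifen replicates spanned the values of all other libraries, and the standard error of 0.26 was the largest among the 9 genes. Its changes with Ezh1 loss were 0.32 ± 0.26 in oil and -0.20 ± 0.26 after tamoxifen, and with tamoxifen -0.24 ± 0.26 in Ezh1-/- cells and 0.28 ± 0.26 in Ezh1+/+ cells, with limma adjusted p between 0.406 and 0.685. Without Ezh1-/- tamoxifen replicate 1, the change with Ezh1 loss after tamoxifen was 0.16 and the tamoxifen change in Ezh1-/- cells 0.12.

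Kdm2b (gene 30841, chr5:122870675-122989092), which brings PRC1.1 to CG-rich promoters, had -0.04 and -0.10 in Ezh1-/- oil libraries, against 0.49 and 0.33 in Ezh1+/+ oil libraries. Kdm2b fell by 0.48 ± 0.12 with Ezh1 loss in oil, to 0.717 times the Ezh1+/+ value (limma adjusted p = 0.0456). After tamoxifen it had -0.26 and -0.17 in Ezh1-/- libraries, against 0.29 and 0.04 in Ezh1+/+ libraries. All 4 Ezh1-/- libraries lay below all 4 Ezh1+/+ libraries, but the difference after tamoxifen did not pass (-0.38 ± 0.12, limma adjusted p = 0.107). The oil call was close to the threshold and was lost with only the compared groups in the fit (limma adjusted p = 0.0757), with quantile normalization (0.0657), with all rows (0.0744), with robust moderation (0.0501), and with the replicate number as a block (0.0605). It was also lost without Ezh1-/- oil replicate 1 (limma adjusted p = 0.117) or 2 (0.163), Ezh1+/+ oil replicate 1 (0.172) or 2 (0.0874), or either Ezh1-/- tamoxifen library (0.0777 each). Values of this kind cannot tell apart the long Kdm2b transcripts, which encode the demethylase domain, and the short ones from the internal starts.

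With tamoxifen, Kdm2b differed by -0.14 ± 0.12 in Ezh1-/- cells and by -0.24 ± 0.12 in Ezh1+/+ cells (limma adjusted p = 0.615 and 0.342). The tamoxifen libraries lay below their oil libraries in both genotypes without overlap.

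Rybp (gene 56353, chr6:100228565-100287358) and Yaf2 (gene 67057, chr15:93283833-93336935) encode the alternative subunits that stimulate the Ring ligases in variant PRC1. Yaf2 had 0.0196 and 0.52 in Ezh1-/- oil libraries, against -0.64 and -0.45 in Ezh1+/+ oil libraries, and the Ezh1+/+ oil values were its lowest. Yaf2 rose 1.76-fold with Ezh1 loss in oil (0.82 ± 0.19, limma adjusted p = 0.0353). After tamoxifen it had 0.13 and -0.0196 in Ezh1-/- libraries, against -0.09 and 0.05 in Ezh1+/+ libraries, which overlapped (0.07 ± 0.19, limma adjusted p = 0.822). The tamoxifen change was -0.22 ± 0.19 in Ezh1-/- cells and 0.53 ± 0.19 in Ezh1+/+ cells (limma adjusted p = 0.621 and 0.217). The difference between these changes, which is also the difference between the Ezh1 effects, was -0.74 ± 0.27, with an unadjusted p of 0.039 and a limma adjusted p of 0.309. The Ezh1 effect is thus not shown to differ between oil and tamoxifen.

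The Yaf2 call in oil was lost with only the compared groups in the fit (limma adjusted p = 0.119), with quantile normalization (0.0601) and with all rows (0.0828). It was lost without Ezh1-/- oil replicate 2 (limma adjusted p = 0.0926), where the change was 0.57, without Ezh1+/+ oil replicate 1 (0.146) or 2 (0.0888), and without any single tamoxifen library (0.065 for each Ezh1-/- one and 0.0611 for each Ezh1+/+ one). It was kept without Ezh1-/- oil replicate 1, where the change was 1.07 (limma adjusted p = 0.0269). Rybp had -0.0037 and 0.30 in Ezh1-/- oil libraries, against -0.22 and -0.25 in Ezh1+/+ oil libraries, without overlap (0.39 ± 0.13, limma adjusted p = 0.0952). After tamoxifen Rybp had 0.31 and 0.17 in Ezh1-/- libraries, against -0.12 and 0.0037 in Ezh1+/+ libraries, also without overlap (0.30 ± 0.13, limma adjusted p = 0.199). With tamoxifen, Rybp differed by 0.09 ± 0.13 in Ezh1-/- cells and by 0.18 ± 0.13 in Ezh1+/+ cells (limma adjusted p = 0.787 and 0.504). The mouse annotation holds a processed pseudogene of Rybp, and reads shared with such a copy could be split in counting, so the Rybp values are less certain.

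Counted over the family, Ezh2 deletion called none of the 9 genes by limma, either without Ezh1 or with it. The background was 3.4% of all genes tested without Ezh1 (614 of 18051, 3.1% higher and 0.299% lower) and 0.903% with Ezh1 (163 of 18051, 0.637% higher and 0.266% lower). At an unadjusted p under 0.05, 1 of the 9 passed without Ezh1 and 2 with Ezh1, against 3223 and 3713 of all genes. The tamoxifen and oil libraries did not overlap for 4 of the 9 genes without Ezh1, where 49.2% of all genes did not, and for 8 of the 9 with Ezh1, where 53.8% did not. The median absolute change of the 9 genes was 0.17 without Ezh1, beside 0.22 over all genes, and 0.18 with Ezh1, beside 0.26 over all genes. Their changes had the same sign in both Ezh1 genotypes for 5 of 9 genes, beside 57.0% of all genes. The largest of these changes was that of Yaf2 in Ezh1+/+ cells, at 0.53. No member's Ezh2 effect was called different between the Ezh1 genotypes by limma (0 of 9). The background was 0.476% of all genes, 0.321% with a higher and 0.155% with a lower effect without Ezh1. At an unadjusted p under 0.05, 2 of the 9 passed, against 2697 of 18051 genes.

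**Figure D2:**
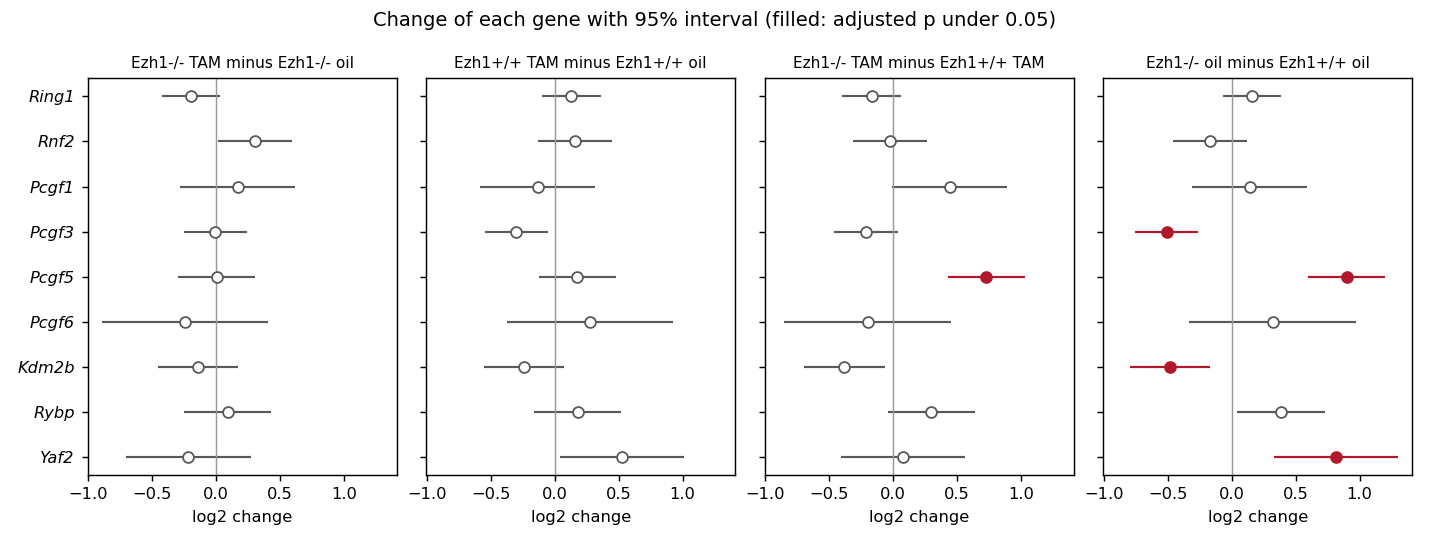
Log2 change of each of the 9 genes with its unadjusted 95% interval in 4 comparisons, with filled red points where the limma adjusted p over all genes was under 0.05. Filled points are Pcgf5 in both Ezh1 comparisons and Pcgf3, Kdm2b and Yaf2 in the oil comparison, and no point is filled for tamoxifen against oil.

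Ezh1 loss in oil called 4 of the 9 genes, Pcgf5 and Yaf2 higher and Pcgf3 and Kdm2b lower, where the background was 24.9% of all genes tested (4493 of 18051). Of all genes, 12.5% were called higher and 12.4% lower. The groups did not overlap for any of the 9 genes, where 65.8% of all genes did not overlap. After tamoxifen 1 of the 9 was called, Pcgf5, against 12.2% of all genes (2204 of 18051, 6.77% higher and 5.44% lower), and 6 of the 9 did not overlap, against 62.5% of all genes. The median absolute change was 0.39 in oil, beside 0.42 over all genes, and 0.21 after tamoxifen, beside 0.35 over all genes. The oil and tamoxifen comparisons of Ezh1 loss share no library, and 7 of the 9 genes had the same sign in both, beside 71.6% of all genes. Ring1 and Pcgf6 were the members whose sign differed. The median absolute change of the family was thus below that over all genes in all 4 comparisons. That background is not matched: only 15517 of the 18051 genes were, like the 9, above the floor in all 8 libraries. The Ezh1+/+ oil libraries serve both in the Ezh1 comparison in oil and in the Ezh2 comparison with Ezh1, so the low Yaf2 and high Pcgf3 and Kdm2b values there enter both.

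The partners of PRC1.1 included a related pair that changed in opposite directions. Bcor, the corepressor that binds Pcgf1, had -0.76 and -0.79 in Ezh1-/- oil libraries, against 0.89 and 0.85 in Ezh1+/+ oil libraries. After tamoxifen Bcor had -0.64 and -0.38 in Ezh1-/- libraries, against 0.49 and 0.38 in Ezh1+/+ libraries. Bcor fell to 0.319 times the Ezh1+/+ value in oil (-1.65 ± 0.11, limma adjusted p = 0.00257) and to 0.518 times after tamoxifen (-0.95 ± 0.11, limma adjusted p = 0.0152), and none of the Ezh1-/- values reached the Ezh1+/+ range. Its paralogue Bcorl1, which can take the place of Bcor in PRC1.1, had 0.30 and 0.49 in Ezh1-/- oil libraries, against -0.41 and -0.46 in Ezh1+/+ oil libraries. After tamoxifen Bcorl1 had 0.50 and 0.49 in Ezh1-/- libraries, against -0.33 and -0.30 in Ezh1+/+ libraries. Bcorl1 rose 1.78-fold in oil (0.83 ± 0.10, limma adjusted p = 0.00619) and 1.75-fold after tamoxifen (0.81 ± 0.10, limma adjusted p = 0.0152). Both oil calls stood under all 16 alternatives.

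The calls after tamoxifen were lost for Bcor and Bcorl1 with only the compared groups in the fit (limma adjusted p = 0.0897 and 0.071). Without Ezh1-/- tamoxifen replicate 1 they were 0.059 and 0.073, without Ezh1+/+ tamoxifen replicate 1 they were 0.0595 and 0.0587, and without Ezh1+/+ tamoxifen replicate 2 they were 0.0508 and 0.0551. Bcorl1 was also lost without Ezh1-/- tamoxifen replicate 2 (limma adjusted p = 0.0691). These calls were 2 of the 4 PRC1.1 partners with a row, in oil, where 24.9% of all genes were called, and after tamoxifen, where 12.2% were. Ezh2 deletion called 0 of the 4 by limma without Ezh1 and 0 of the 4 with Ezh1, beside 3.4% and 0.903% of all genes. At an unadjusted p under 0.05 there were 0 and 2. Bcor had the smallest p of the list there, with 0.27 ± 0.11 without Ezh1 and -0.43 ± 0.11 with Ezh1 (limma adjusted p = 0.323 and 0.135).

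**Figure D3:**
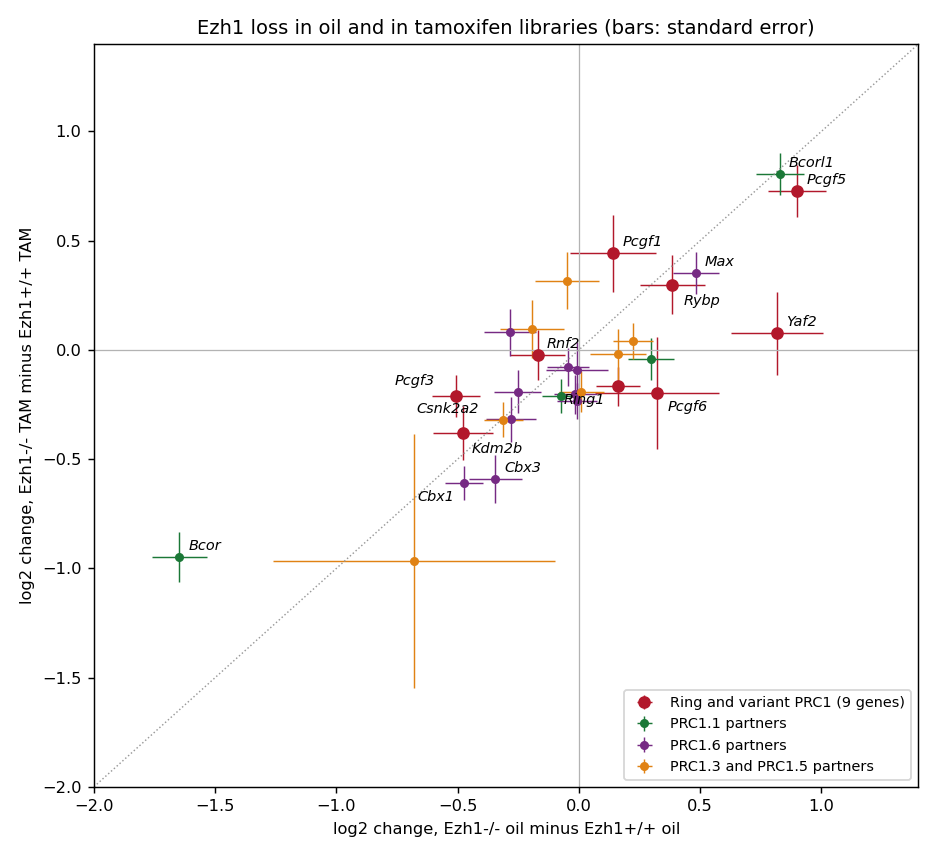
Log2 change with Ezh1 loss in the oil libraries (horizontal) and in the tamoxifen libraries (vertical), with standard errors, for the 9 genes and the partners of PRC1.1, PRC1.6, and PRC1.3 and PRC1.5. The dotted line marks equal change. Pcgf5 and Bcorl1 lie together near the line at the upper right, Bcor lies farthest to the left, and Yaf2 lies near 0 on the vertical axis.

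PRC1.6 carries sequence-specific factors and heterochromatin proteins beside Pcgf6. Of its 10 listed partners, 2 were called with Ezh1 loss in oil and 2 after tamoxifen, beside 24.9% and 12.2% of all genes, so the share in oil was below that of all genes. Cbx1, an HP1 family protein, fell in both (-0.47 ± 0.08 in oil and -0.61 ± 0.08 after tamoxifen, limma adjusted p = 0.0142 and 0.0172). Max, the dimer partner of Mga, rose in oil (0.48 ± 0.10, limma adjusted p = 0.023) and did not pass after tamoxifen (0.35 ± 0.10, limma adjusted p = 0.0738). Cbx3, also of the HP1 family, fell after tamoxifen (-0.59 ± 0.11, limma adjusted p = 0.0326) and did not pass in oil (-0.34 ± 0.11, limma adjusted p = 0.0737). Leaving out a library of the compared groups raised the adjusted p to between 0.0551 and 0.0663 for Cbx1 in oil. The same step gave up to 0.0782 for Cbx1 and 0.135 for Cbx3 after tamoxifen, and up to 0.101 for Max in oil. With only the compared groups in the fit, Max in oil (0.0788) and Cbx1 and Cbx3 after tamoxifen (0.0883 and 0.0935) were also lost.

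Tamoxifen against oil called 0 of the 10 PRC1.6 partners by limma without Ezh1 and 0 with Ezh1, beside 3.4% and 0.903% of all genes. At an unadjusted p under 0.05 there was 1 in each. The smallest p was that of Cbx1 without Ezh1 (-0.26 ± 0.08, limma adjusted p = 0.18) and of Mga, the scaffold of PRC1.6, with Ezh1 (-0.27 ± 0.11, limma adjusted p = 0.241). Of the 7 listed partners of PRC1.3 and PRC1.5, only Csnk2a2, a catalytic subunit of casein kinase 2, was called with Ezh1 loss in oil, where 24.9% of all genes were (-0.31 ± 0.08, limma adjusted p = 0.0454). That call was lost when any 1 of the 8 libraries was left out (limma adjusted p = 0.0612 to 0.153), and also with only the compared groups (0.093), quantile normalization (0.0889), robust moderation (0.0532) or the replicate number as a block (0.0743). After tamoxifen none of the 7 was called by limma, where 12.2% of all genes were, with 1 at an unadjusted p under 0.05, Csnk2a2 (-0.32 ± 0.08, limma adjusted p = 0.0622). Tamoxifen against oil called 0 of the 7 by limma without Ezh1 and 0 with Ezh1, beside 3.4% and 0.903% of all genes. At an unadjusted p under 0.05 there were 0 and 1. The smallest p there was that of Csnk2a1 without Ezh1 (-0.16 ± 0.09, limma adjusted p = 0.465) and of Fbrs with Ezh1 (-0.36 ± 0.13, limma adjusted p = 0.219).

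Differences between related genes within a library do not depend on a constant scaling factor of that library, and they were chosen for display after the values were seen. They are therefore described without a test, and a further pair of PRC1.1 subunits is added. Because each gene is centred on its own median, the sign of such a difference is relative, and only its shift between libraries can be read. Pcgf5 minus Pcgf3 lay between 0.38 and 0.58 in the 4 Ezh1-/- libraries and between -1.06 and -0.34 in the 4 Ezh1+/+ libraries. Bcorl1 minus Bcor lay between 0.87 and 1.28 in Ezh1-/- libraries and between -1.31 and -0.68 in Ezh1+/+ libraries. Pcgf1 minus Kdm2b, which are not paralogues, lay between 0.04 and 0.60 in Ezh1-/- libraries and between -0.59 and -0.41 in Ezh1+/+ libraries. In these 3 pairs the genotypes were separated and the Ezh1+/+ oil libraries were lowest. Yaf2 minus Rybp ran from -0.19 to 0.22 in Ezh1-/- libraries and from -0.42 to 0.04 in Ezh1+/+ libraries, and Rnf2 minus Ring1 ran from -0.34 to 0.38 and from -0.05 to 0.13 in the same order. The genotypes overlapped for these pairs, and for Rnf2 minus Ring1 the Ezh1-/- oil libraries were lowest.

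**Figure D4:**
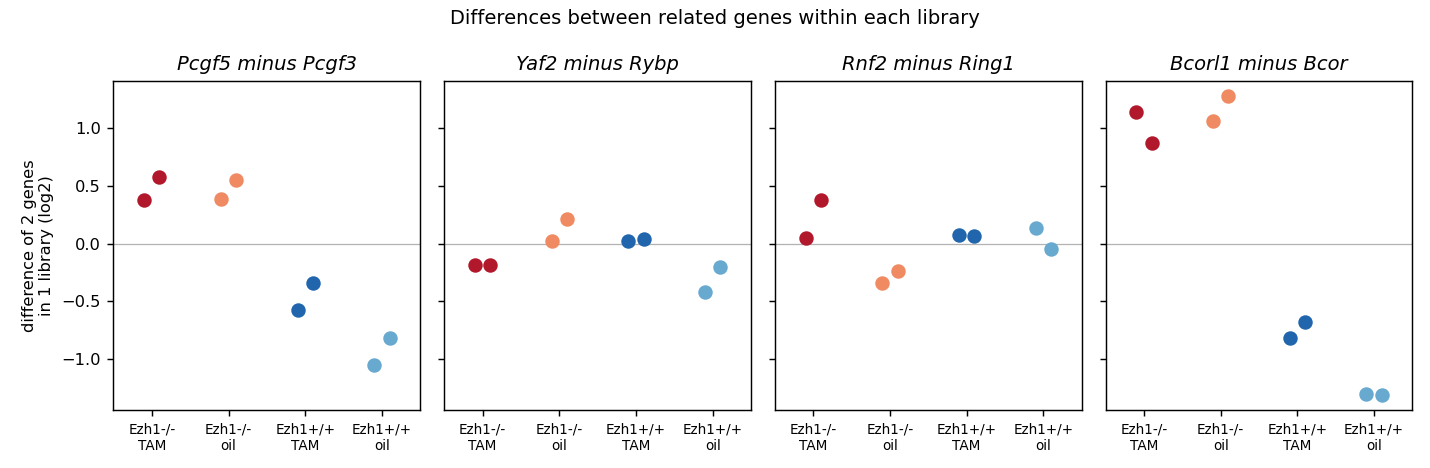
Difference of the log2 values of related genes within each library, one point a library, for the Ezh1-/- tamoxifen, Ezh1-/- oil, Ezh1+/+ tamoxifen and Ezh1+/+ oil groups. Pcgf5 minus Pcgf3 and Bcorl1 minus Bcor are above 0 in all 4 Ezh1-/- libraries and below 0 in all 4 Ezh1+/+ libraries, and the other pairs plotted, Yaf2 minus Rybp and Rnf2 minus Ring1, overlap between genotypes.

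Outside variant PRC1, the canonical subunits included the gene with a called Ezh2 effect. Canonical PRC1 holds Bmi1 (also called Pcgf4) or Pcgf2. Bmi1 had 0.75 and 0.91 in Ezh1-/- tamoxifen libraries, against -0.42 and -0.41 in Ezh1-/- oil libraries. In Ezh1+/+ cells Bmi1 had 0.51 and 0.41 after tamoxifen, against -0.60 and -0.75 in oil. Bmi1 rose 2.37-fold without Ezh1 (1.25 ± 0.11, limma adjusted p = 0.00889) and 2.19-fold with Ezh1 (1.13 ± 0.11, limma adjusted p = 0.0284). It was 1 of the 15 genes listed with canonical PRC1 called in each, beside 3.4% and 0.903% of all genes. That list is broader than the canonical subunits themselves and includes Sfmbt2. Pcgf2, named after its values were seen, differed by 1.69 ± 0.46 without Ezh1 and by 1.15 ± 0.46 with Ezh1 and did not pass (limma adjusted p = 0.143 and 0.249). All 4 tamoxifen libraries lay above all 4 oil libraries for Bmi1. The Bmi1 call without Ezh1 was lost with only the compared groups in the fit (limma adjusted p = 0.0593) and without Ezh1-/- tamoxifen replicate 2 (0.0557). The Bmi1 call with Ezh1 was lost with only the compared groups (limma adjusted p = 0.162), all rows (0.059) or the replicate number as a block (0.0666), and on leaving out any library but Ezh1+/+ tamoxifen replicate 1 (up to 0.118). With Ezh1 loss, 6 of the 15 were called in oil, 2 higher and 4 lower, where 24.9% of all genes were. Scmh1 rose by 0.71 ± 0.11, whereas Cbx6 fell by 0.88 ± 0.14 and Sfmbt2 fell by 0.66 ± 0.14 (limma adjusted p = 0.0121, 0.0124 and 0.0263). Scmh1, Cbx6 and Sfmbt2 were lost without Ezh1-/- oil replicate 2 (limma adjusted p = 0.0625, 0.0594 and 0.112) and without either Ezh1+/+ oil library (0.0511 to 0.1004), and Sfmbt2 also without Ezh1-/- oil replicate 1 (0.0798). Quantile normalization also ended the calls of Cbx6 and Sfmbt2 (limma adjusted p = 0.0605 and 0.0548), and all rows that of Sfmbt2 (0.0528).

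A further list held enzymes that remove the ubiquitin placed by Ring1 and Rnf2, and Asxl cofactors of Bap1, with 7 of its 8 genes above the floor in all 8 libraries. Of the 8 listed genes, limma called 0 in each of the 4 comparisons. Over all genes, 24.9% were called with Ezh1 loss in oil, 12.2% after tamoxifen, 3.4% with Ezh2 deletion without Ezh1 and 0.903% with Ezh1. At an unadjusted p under 0.05, 5 passed with Ezh1 loss in oil and 0 after tamoxifen, against 7183 and 5833 of 18051 genes. With Ezh2 deletion, 0 passed without Ezh1 and 3 with Ezh1, against 3223 and 3713 of all genes. The smallest p was that of Usp3, an H2A deubiquitinase, with Ezh1 loss in oil (-0.41 ± 0.12, limma adjusted p = 0.0565). It was Usp16 after tamoxifen (-0.24 ± 0.11, limma adjusted p = 0.191). For Ezh2 deletion it was Usp21 without Ezh1 (-0.29 ± 0.12, limma adjusted p = 0.291) and Asxl2, a cofactor of the deubiquitinase Bap1, with Ezh1 (-0.32 ± 0.08, limma adjusted p = 0.124). Among 11 PRC2 genes, Ezh1 loss called 6 in oil, 1 higher and 5 lower, and 5 after tamoxifen, all lower, beside 24.9% and 12.2% of all genes. Ezh1 itself was among them (-3.53 ± 0.10 and -3.17 ± 0.10). The core subunit Suz12 fell in both (-0.81 ± 0.10 in oil and -0.84 ± 0.10 after tamoxifen, limma adjusted p = 0.00668 and 0.0148), as did the accessory subunit Aebp2 (-0.57 ± 0.08 and -0.66 ± 0.08, limma adjusted p = 0.01005 and 0.0163). After tamoxifen both calls were lost without any 1 of the 4 tamoxifen libraries (limma adjusted p = 0.0503 to 0.0708 for Suz12 and 0.0559 to 0.076 for Aebp2) and with only the compared groups (0.0751 and 0.0846), and Aebp2 in oil was lost without Ezh1-/- oil replicate 2 (0.0531) or Ezh1+/+ oil replicate 2 (0.0501). Ezh2 fell by 0.31 ± 0.08 in oil and by 0.60 ± 0.08 after tamoxifen (limma adjusted p = 0.0492 and 0.01998). Jarid2, an accessory subunit that helps recruit PRC2, rose 1.51-fold in oil (0.60 ± 0.15, limma adjusted p = 0.0446) and did not pass after tamoxifen (0.35 ± 0.15, limma adjusted p = 0.187). With 1 library left out, the adjusted p in oil rose to between 0.0629 and 0.164 for Ezh2, under each of the 8, and to up to 0.162 for Jarid2. After tamoxifen the Ezh2 call was lost without any 1 of the 4 tamoxifen libraries (limma adjusted p = 0.0564 to 0.0826). The fit of only the compared groups, quantile normalization and the replicate number as a block each ended the oil calls of Ezh2 and Jarid2 (limma adjusted p = 0.059 to 0.0942). Robust moderation also ended the oil call of Ezh2 (limma adjusted p = 0.0569), and all rows that of Jarid2 (0.0889). With only the compared groups in the fit, the Ezh2 call after tamoxifen was lost too (limma adjusted p = 0.0894). Limma called 0 of these 11 PRC2 genes with Ezh2 deletion in either genotype, beside 3.4% of all genes without Ezh1 and 0.903% with Ezh1. At an unadjusted p under 0.05 there were 3 without Ezh1 and 1 with Ezh1. The smallest p was that of Ezh2 without Ezh1, given above, and of Aebp2 with Ezh1 (0.28 ± 0.08, limma adjusted p = 0.162).

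Of 88 markers of blood and stromal cell types tested, Ezh1 loss called 42 in oil and 24 after tamoxifen, beside 24.9% and 12.2% of all genes. Their part in the changes of the 9 genes was not tested. All 10 markers listed for c-kit+ leukaemia cells, Kit among them, were above the floor in all 8 libraries. The median of that list lay between 0.28 and 0.41 in Ezh1-/- libraries and between -0.69 and -0.28 in Ezh1+/+ libraries. Of the 10, 6 were called in oil, 5 higher and 1 lower, and 7 after tamoxifen, 5 higher and 2 lower. Elane, a granule protease of promyelocytes, rose by 5.74 ± 0.42 in oil, and Meis1, a leukaemia-associated homeobox gene, fell by 1.36 ± 0.11 in oil and by 1.47 ± 0.11 after tamoxifen (limma adjusted p = 0.0028, 0.00294 and 0.00656). Elane was also called after tamoxifen, with a smaller rise of 2.40. B cell markers had medians from 0.57 to 3.16 in Ezh1-/- libraries and from -1.18 to -0.89 in Ezh1+/+ libraries. Of the 11, 7 were called in oil, all higher, and 7 after tamoxifen, 6 higher and 1 lower. Mature neutrophil markers had medians from 0.36 to 1.76 and from -2.89 to -0.32 in the same order, with 6 of 11 called in oil, all higher. Limma called 0 of these after tamoxifen, with 6 at an unadjusted p under 0.05.

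Monocyte and macrophage markers had medians from -0.29 to -0.03 in Ezh1-/- libraries and from 0.01 to 0.18 in Ezh1+/+ libraries. Of the 10, 9 were called in oil, 3 higher and 6 lower, and 7 after tamoxifen, 3 higher and 4 lower. Stromal and endothelial markers had medians from -1.09 to -0.19 in Ezh1-/- libraries and from 0.07 to 1.58 in Ezh1+/+ libraries, with 3 of 11 called in oil and 1 after tamoxifen, all lower. For the remaining lists the genotypes overlapped. T and NK cell markers had medians from -0.68 to 0.48 in Ezh1-/- libraries and from -1.86 to 2.29 in Ezh1+/+ libraries. Of the 14 tested, 6 were called in oil, 5 higher and 1 lower, and 1 was called lower after tamoxifen. Trac was at the floor in every library. Erythroid markers ran from -0.0081 to 1.41 and from -3.00 to 1.93 in the same order, with 2 of 10 called higher in oil, and 0 by limma after tamoxifen, where 0 had an unadjusted p under 0.05. Megakaryocyte and platelet markers ran from -0.56 to 0.09 and from -0.62 to 1.87. Of these 11, 3 were called in oil, 1 higher and 2 lower, and 1 was called lower after tamoxifen. All of these counts stand beside 24.9% of all genes called in oil and 12.2% after tamoxifen, and the erythroid share was below both.

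Marker changes between tamoxifen and oil libraries are given beside the shares of all genes, and their part in the Ezh2 comparisons, Bmi1 included, was not tested. With Ezh1, the median change was 3.34 over 14 T and NK cell markers, 3.52 over 10 erythroid, 2.23 over 11 mature neutrophil, 1.67 over 11 megakaryocyte and platelet and 1.04 over 11 stromal and endothelial markers. It was 0.29 over 11 B cell, 0.22 over 10 c-kit+ leukaemia and 0.06 over 10 monocyte and macrophage markers. List medians in Ezh1+/+ tamoxifen replicates 1 and 2 were 0.95 and 2.29 for T and NK cells and -0.47 and 1.93 for erythroid cells. They were -1.91 and -0.32 for neutrophils, 0.27 and 1.87 for megakaryocytes, and 0.79 and 1.58 for stroma. The replicates lay closer for B cell (-1.09 and -0.98), c-kit+ leukaemia (-0.28 and -0.35) and monocyte markers (0.12 and 0.01). Of these 88 markers, limma called 2, Klrd1 and Nkg7 of cytotoxic lymphocytes (5.09 ± 0.47 and 4.79 ± 0.57, adjusted p = 0.0276 and 0.043), while 49 had an unadjusted p under 0.05. Over all 18051 genes, 0.903% were called and 3713 had an unadjusted p under 0.05. Without Ezh1, the median change was 0.92 over T and NK cell, 0.88 over megakaryocyte and platelet, 0.83 over stromal and endothelial, 0.36 over monocyte and macrophage and 0.15 over mature neutrophil markers. It was -1.11 over B cell, -0.36 over erythroid and -0.30 over c-kit+ leukaemia markers. There limma called 3 of the 88, the lymphocyte protease gene Gzmb (3.89 ± 0.59, adjusted p = 0.038) and the monocyte gene Ly6c2 (0.64 ± 0.11, adjusted p = 0.0482) higher and Meis1 (-0.65 ± 0.11, adjusted p = 0.045) lower, while 16 had an unadjusted p under 0.05. Over all 18051 genes, 3.4% were called and 3223 had an unadjusted p under 0.05, so the marker counts without Ezh1 were near the shares of all genes.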

How the data were processed

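RNA sequencing libraries from 8 mouse samples were grouped by the genotype and treatment in their labels, with replicate numbers from their titles. The deposited values are log2 expression values. Per the file headers the authors normalized them per library and filtered rows to an upper percentile range of the raw data. The values themselves show a floor and centring on each gene's median over 8 libraries (largest absolute row median 9.55e-07). The build is mm10 per the labels. Aligner, read counter and scaling factors were not given in the sources used here. Without counts, no count test was used, depth per library was not computed, and precision rests on 2 libraries a group.

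From the deposited log2 values, limma 3.58.1 (R 4.3.3) was fitted with 1 coefficient a group over 18051 rows, each above the floor in 2 or more libraries (tolerance 2e-06), with 4 residual and 1.24 prior degrees of freedom. Changes are differences of group means, and p-values were adjusted by the Benjamini-Hochberg method over all rows. The fit was first run on simulated data with changes of known size, and the check was only that the size was recovered. Alternatives were the compared groups alone, a variance trend, quantile normalization, library medians set to 0, all rows, rows above the floor in all 8 libraries, robust moderation, the replicate number as a block, and leaving out each library. Python 3.11.15 with pandas 2.3.3 made the other tables. Promoters came from the RefSeq table of GRCm38.p6.

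The 9 genes, the pathway lists and the marker lists were chosen with earlier results of these data known. All 9 genes were named in every comparison. From each pathway list, in the comparisons of Ezh1 loss and of Ezh2 deletion, the called genes were named, at most 4 by smallest p, or else the gene with the smallest p, and up to 2 markers were taken per cell type list by smallest p. A called gene of the canonical list is not reported here. F530104D19Rik, Kit, Trac and Pcgf2 were named outside this rule.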

Additional observations from a re-analysis of the deposited data

How the results depend on the processing

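Over the alternatives that left out no library, 340 of 351 changes of the 9 genes kept their direction and side of the threshold, and over those that left out 1 library 323 of 360 did. The number of the 9 genes called with Ezh1 loss in oil was 4, against 2 with only the compared groups in the fit, 2 with quantile normalization, 2 with all rows, and 1 to 3 with 1 library left out. After tamoxifen it was 1, against 0 with only the compared groups and 0 to 1 with 1 library left out. For Ezh2 deletion and for the difference between Ezh2 effects it was 0 under every alternative run. Where a fit leaves a group with 1 library, that library is assumed to vary like the others. The fit of only the compared groups was not run for the difference between Ezh2 effects, which needs all groups. The cause of these shifts was not tested.

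Genes called over the whole table moved as follows. For Ezh2 deletion without Ezh1 there were 614, against 240 with only the compared groups, 215 with all rows, and 176 to 469 with 1 library left out. For Ezh2 deletion with Ezh1 there were 163, against 0 with only the compared groups (where 3713 had an unadjusted p under 0.05 in the fit of all groups), 46 with all rows, and 24 to 404 with 1 library left out. For Ezh1 loss in oil there were 4493, against 2531 with only the compared groups and 1707 to 4004 with 1 library left out. For Ezh1 loss after tamoxifen there were 2204, against 27 with only the compared groups, 1187 with all rows, and 337 to 1323 with 1 library left out. For the difference between Ezh2 effects there were 86, against 8 with a variance trend, 37 with quantile normalization, 55 with all rows, 6 with rows above the floor in all 8 libraries, and 17 to 98 with 1 library left out. Quantile normalization shifted the median of all genes by up to -0.09. It changed the split of calls for Ezh2 deletion without Ezh1 to 342 higher and 115 lower, against 560 and 54 without it, and for the difference between Ezh2 effects to 20 and 17, against 58 and 28.

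Deviations of same-numbered libraries correlated between -0.06 and 0.08 over the pairs of groups. No strong shared deviation was thus evident, but these correlations cannot tell whether the samples were paired. With the replicate block, 364 genes were called for Ezh2 deletion without Ezh1, 23 with Ezh1, 1179 for Ezh1 loss after tamoxifen and 5 for the difference between Ezh2 effects. Kdm2b was the member whose call with Ezh1 loss in oil was lost under the replicate block (limma adjusted p = 0.0605).

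Changes of uncalled genes reversed as follows. With quantile normalization, Pcgf5 had -0.17 for Ezh2 deletion without Ezh1, and the difference between Ezh2 effects of Kdm2b was -0.024. With 1 library left out, the change with Ezh2 deletion without Ezh1 ran from -0.052 to 0.039 for Pcgf3, from -0.083 to 0.089 for Pcgf5, from -0.60 to 0.12 for Pcgf6, from -0.063 to 0.25 for Rybp and from -0.47 to 0.034 for Yaf2. With Ezh1, it ran from -0.28 to 0.017 for Pcgf1. The change with Ezh1 loss after tamoxifen ran from -0.14 to 0.092 for Rnf2 and from -0.56 to 0.16 for Pcgf6. The difference between Ezh2 effects ran from -0.026 to 0.22 for Kdm2b and from -0.24 to 0.067 for Rybp.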
